A study of Mus musculus with 6 samples.

Results

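Macrophages depend on the colony-stimulating factor 1 (CSF1) axis, and the transcripts examined here are those of that axis and of the proteins by which mouse macrophages are recognised. The 10 genes are the ligand genes Csf1 and Il34, their shared receptor Csf1r, the surface protein genes Adgre1, Cd14, Itgam and Fcgr1, and Cd68, Lyz2 and Aif1. They were chosen by name from the probe sets whose array annotation names a single gene, and all 10 were measured among 19937 genes in all. RNA came from 1 whole tumour from each of 6 female FVBN mice carrying the MMTV-PyMT transgene, in which a mammary tumour virus promoter drives polyoma virus middle T antigen mainly in mammary epithelium. Tumour burden was assessed at 75 to 90 days of age, before dosing began. TMP195 at 50 mg/kg was given to 3 mice and the vehicle DMSO to the other 3, by injection into the abdomen once a day. TMP195 is an inhibitor of the class IIa histone deacetylases. The labels disagree on the length of dosing, with 5 days in one field and 2 weeks in another.

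CSF1R is a receptor tyrosine kinase on monocytes and macrophages. CSF1 and interleukin-34 both bind it and maintain these cells, although the ligands are little alike in sequence, and in mice a loss of the receptor depletes most tissue macrophages. In MMTV-PyMT tumours macrophages recruited through CSF1 are known for promoting progression to invasive disease. The transcription factor PU.1 directs much of the macrophage programme by binding sequences with the core GAGGAA, the PU box, near many myeloid promoters.

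Promoters are shown for Itgam, Fcgr1 and Cd68, 3 of the 4 members that were highest in TMP195 tumour 2 and lowest in TMP195 tumour 3. Lyz2, which ran against them in TMP195 tumour 2, is also shown. Each sequence is the 250 bases before the RefSeq start site (assembly GRCm38.p6), written 5′ to 3′ on the gene's own strand. The PU box core, GAGGAA or its reverse complement TTCCTC, is in capitals. Itgam lies on the plus strand at chr7:128062390-128062639, Fcgr1 on the minus strand at chr3:96293970-96294219, Cd68 on the minus strand at chr11:69666171-69666420 and Lyz2 on the minus strand at chr10:117282273-117282522.
Itgam: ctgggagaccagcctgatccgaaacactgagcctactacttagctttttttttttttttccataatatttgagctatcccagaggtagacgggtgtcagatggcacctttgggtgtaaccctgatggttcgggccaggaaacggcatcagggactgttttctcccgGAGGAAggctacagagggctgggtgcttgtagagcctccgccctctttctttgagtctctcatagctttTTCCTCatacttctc
Fcgr1: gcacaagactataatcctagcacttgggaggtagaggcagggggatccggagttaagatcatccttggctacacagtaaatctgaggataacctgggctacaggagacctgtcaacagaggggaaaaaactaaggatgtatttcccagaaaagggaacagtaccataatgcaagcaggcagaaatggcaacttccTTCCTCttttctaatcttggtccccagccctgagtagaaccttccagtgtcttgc
Cd68: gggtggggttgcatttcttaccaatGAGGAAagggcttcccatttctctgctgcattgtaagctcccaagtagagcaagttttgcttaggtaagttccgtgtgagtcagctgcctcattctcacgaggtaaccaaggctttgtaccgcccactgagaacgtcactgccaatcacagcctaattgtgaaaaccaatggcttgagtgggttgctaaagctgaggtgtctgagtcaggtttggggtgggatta
Lyz2: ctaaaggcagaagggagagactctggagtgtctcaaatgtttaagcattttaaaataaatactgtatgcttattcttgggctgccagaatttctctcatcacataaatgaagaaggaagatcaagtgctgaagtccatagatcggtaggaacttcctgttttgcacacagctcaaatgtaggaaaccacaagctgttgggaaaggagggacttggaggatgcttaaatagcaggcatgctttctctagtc
The search left out the chromosome of Csf1r and Cd14, and Adgre1 and Il34 had no window. Of the 6 members searched, 4 held the core on either strand, namely Itgam with 2 matches and Fcgr1, Cd68 and Aif1 with 1 each. Csf1 and Lyz2 held none, although Csf1, like Itgam, was highest in TMP195 tumour 2. A relation between the core and the order of the tumours was not tested. The core occurs in 23.4% of 32536 distinct promoter windows of this length, so a match describes letters and not a bound site.

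None of the 10 genes passed the test for a difference between TMP195 and DMSO tumours. In limma's moderated test over all genes, with Benjamini-Hochberg adjustment, 0 of 10 passed an adjusted p of 0.05, every member's adjusted p was 1.00, and 0 of 10 had an unadjusted p under 0.05. Over all 19937 genes 0% passed the adjusted threshold and 2.52% had an unadjusted p under 0.05. Differences ran from -0.22 for Lyz2 to 0.19 for Cd14 on the log2 scale, TMP195 minus DMSO, with 6 members lower, 4 higher and a median of -0.011, against a median of -0.0014 over all genes. The groups overlapped in all 10 members, while 6.68% of all genes had groups that did not overlap. In the exact two-sided permutation test over tumours, which cannot go below p = 0.10 with 3 against 3, the members gave p from 0.30 to 1.00. In a whole tumour, fewer macrophages and less transcript per macrophage cannot be told apart.

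Most of the variation between tumours lay inside the TMP195 group. TMP195 tumour 2 was the highest of the 6 in 7 members, Adgre1, Csf1, Cd68, Cd14, Itgam, Fcgr1 and Aif1, and the lowest in Il34 and Lyz2. TMP195 tumour 3 was the lowest in Adgre1, Csf1r, Cd68, Itgam and Fcgr1. Over all genes TMP195 tumour 2 was highest in 25.4% and TMP195 tumour 3 lowest in 11.6%, and both together held in 4.28% of genes and in 4 of the members. The standard deviation was larger among TMP195 tumours than among DMSO tumours in 9 of 10 members, the exception being Lyz2, and in 51.5% of all genes. These shares are descriptions with 3 tumours a group, and the spread itself was not tested.

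**Figure D1:**
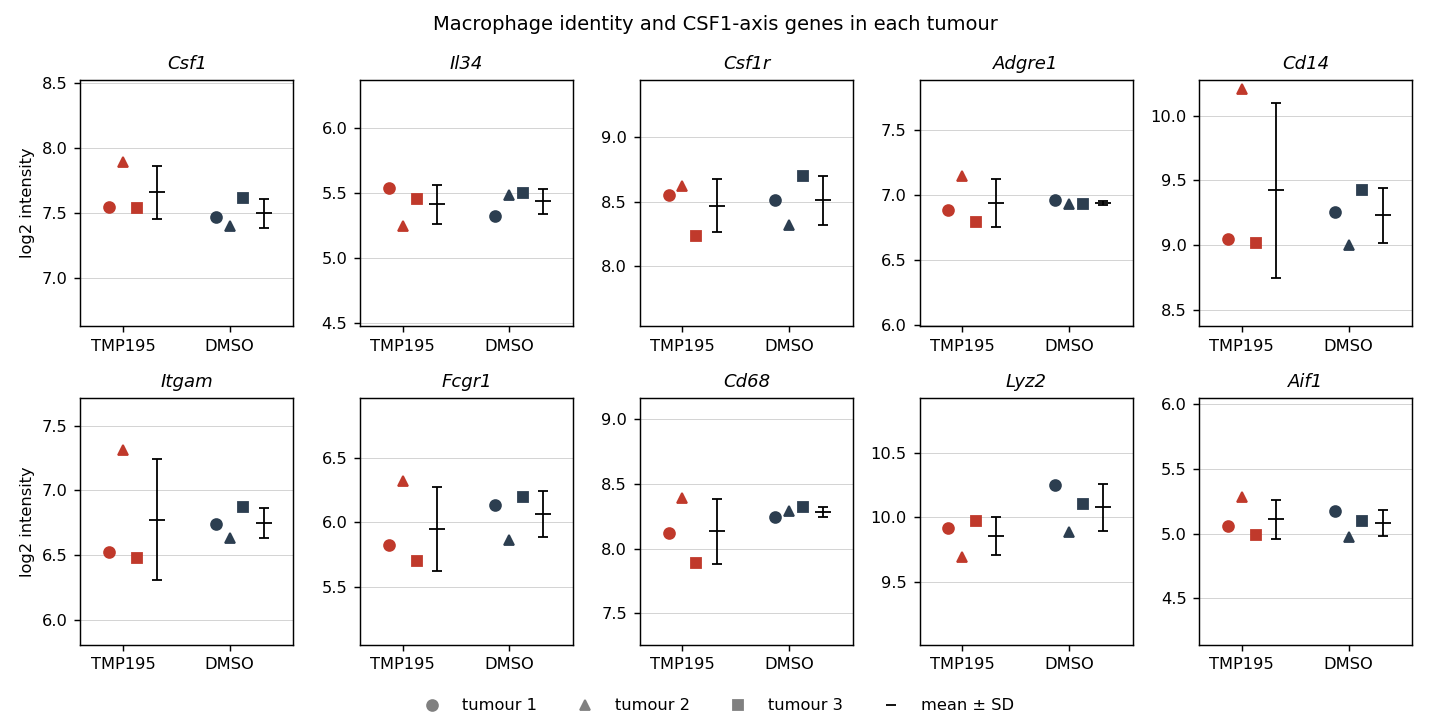
Log2 array intensity (vertical axes, each spanning the same log2 range) of the 10 genes in 3 TMP195 tumours (red, left) and 3 DMSO tumours (dark, right), with marker shape for tumour number and bars for mean ± SD. TMP195 tumour 2, the red triangle, is the highest point in 7 panels and stands farthest from the others in Cd14 and Itgam.

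The ligand Csf1 is made by stromal and epithelial cells and drives survival and proliferation of macrophages. Its log2 intensity was 7.54, 7.89 and 7.54 in TMP195 tumours 1, 2 and 3, against 7.46, 7.40 and 7.62 in DMSO tumours 1, 2 and 3. TMP195 tumour 2 was high and DMSO tumour 2 lowest, and the other TMP195 tumours lay within the DMSO range. The means were 7.66 ± 0.20 in TMP195 tumours and 7.49 ± 0.11 in DMSO tumours (SD, n = 3 each), a log2 difference of 0.16 with a 95% interval of -0.14 to 0.47 (limma, adjusted p = 1.00). Without TMP195 tumour 2 the difference was 0.046.

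Il34, the second ligand of CSF1R, is best known in mice for maintaining Langerhans cells of the skin and microglia. It measured 5.54, 5.25 and 5.45 in TMP195 tumours and 5.32, 5.48 and 5.50 in DMSO tumours on the log2 scale. TMP195 tumour 2, the highest for Csf1, was the lowest for Il34, and its value lay close to that of DMSO tumour 1. Il34 averaged 5.41 ± 0.15 in TMP195 tumours and 5.44 ± 0.10 in DMSO tumours (SD, n = 3 each), a log2 difference of -0.021 with an interval of -0.29 to 0.24. It turned to 0.061 without TMP195 tumour 2, to 0.0023 without DMSO tumour 2 and to 0.012 without DMSO tumour 3. The probe set was of middling brightness, at percentile 45.4 of mean intensity over genes. That percentile describes the probe set and says nothing of ligand abundance relative to Csf1, whose probe set stood at percentile 71.3.

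Csf1r varied about as much among DMSO tumours as among TMP195 tumours. Its log2 intensity was 8.55, 8.62 and 8.24 in TMP195 tumours, against 8.51, 8.32 and 8.70 in DMSO tumours. The lowest tumour of each group was TMP195 tumour 3 and DMSO tumour 2, and the remaining 4 ran from 8.51 to 8.70. The means were 8.47 ± 0.21 in TMP195 tumours and 8.51 ± 0.19 in DMSO tumours (SD, n = 3 each), and the log2 difference of -0.042 had an interval of -0.39 to 0.30. On the linear scale that interval runs from 0.765-fold to 1.23-fold. The sign turned to 0.075 without TMP195 tumour 3 and to 0.051 without DMSO tumour 3.

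Receptor and ligand were also set against each other inside each tumour, which shows unequal change and not which transcript is the more abundant. Relative to its mean in DMSO tumours, the log2 ratio of Csf1r to Csf1 was -0.0089, -0.29 and -0.32 in TMP195 tumours 1, 2 and 3, against 0.032, -0.096 and 0.065 in DMSO tumours. TMP195 tumours 2 and 3 had the lowest ratios and TMP195 tumour 1 fell among the DMSO tumours. The groups differed by -0.21 (exact permutation p = 0.20, two-sided, adjusted to 0.40 over 2 ratios). For Csf1r to Il34 the ratios were -0.065, 0.30 and -0.29 in TMP195 tumours and 0.12, -0.24 and 0.12 in DMSO tumours, a difference of -0.021 (exact permutation p = 0.90, adjusted 0.90). TMP195 tumour 2 had the highest ratio to Il34 and TMP195 tumour 3 the lowest. Leaving out 1 tumour at a time moved the first ratio's difference between -0.30 and -0.15 and the second between -0.18 and 0.12. Without TMP195 tumour 1 the first had an unadjusted p of 0.0307 in limma, fitted beside all genes (3.36% of them under 0.05), and an adjusted p of 0.99.

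Among the surface proteins, Adgre1 encodes F4/80, the adhesion receptor that defines mature macrophages in mice. It measured 6.88, 7.15 and 6.79 in TMP195 tumours, against 6.96, 6.93 and 6.93 in DMSO tumours. All 3 DMSO tumours lay between the extremes of the TMP195 group. The means were 6.94 ± 0.19 in TMP195 tumours and 6.94 ± 0.017 in DMSO tumours (SD, n = 3 each). The log2 difference was -1.54e-04, with an interval of -0.27 to 0.27. It was -0.10 without TMP195 tumour 2 and turned to 0.075, 0.029 and 0.0096 without TMP195 tumour 3, TMP195 tumour 1 and DMSO tumour 1.

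Cd14, the co-receptor that hands lipopolysaccharide to TLR4 and MD-2, varied the most of the 10. It measured 9.05, 10.21 and 9.02 in TMP195 tumours, against 9.26, 9.002 and 9.43 in DMSO tumours. TMP195 tumour 2 was 0.78 above the next tumour, whereas the remaining 5 overlapped. On the linear scale the intensity was 1181 in TMP195 tumour 2 and from 513 to 690 in the others. The means were 9.42 ± 0.68 in TMP195 tumours and 9.23 ± 0.22 in DMSO tumours (SD, n = 3 each), a log2 difference of 0.19 with an interval of -0.57 to 0.96. Without TMP195 tumour 2 the difference turned to -0.20.

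Itgam encodes CD11b, the integrin chain that pairs with the Itgb2 product on monocytes, macrophages, neutrophils and natural killer cells. It measured 6.53, 7.31 and 6.48 in TMP195 tumours, against 6.74, 6.64 and 6.87 in DMSO tumours. TMP195 tumour 2 was 0.44 above the next tumour, and TMP195 tumours 1 and 3 were below every DMSO tumour. The means were 6.77 ± 0.47 in TMP195 tumours and 6.75 ± 0.12 in DMSO tumours (SD, n = 3 each). The log2 difference was 0.025, with an interval of -0.51 to 0.56, and it was -0.24 without TMP195 tumour 2 and -0.032 without DMSO tumour 2. Another 3 probe sets carry the names of both Itgam and the ribosomal protein gene Rpl35 in the annotation, and they were not used.

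Fcgr1 encodes CD64, the high-affinity receptor for immunoglobulin G. It measured 5.83, 6.32 and 5.70 in TMP195 tumours, against 6.13, 5.87 and 6.20 in DMSO tumours. Here too TMP195 tumour 2 was the highest, and TMP195 tumours 1 and 3 were the lowest of all 6. Fcgr1 averaged 5.95 ± 0.32 in TMP195 tumours and 6.07 ± 0.17 in DMSO tumours (SD, n = 3 each), a log2 difference of -0.11 with an interval of -0.54 to 0.31. It was -0.30 without TMP195 tumour 2 and 0.0082 without TMP195 tumour 3.

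Cd68, a heavily glycosylated protein of late endosomes and lysosomes, measured 8.12, 8.39 and 7.89 in TMP195 tumours and 8.24, 8.29 and 8.32 in DMSO tumours. The DMSO tumours were tightly grouped inside the TMP195 range. The means were 8.13 ± 0.25 in TMP195 tumours and 8.29 ± 0.038 in DMSO tumours (SD, n = 3 each), a log2 difference of -0.15 with an interval of -0.47 to 0.17. Without TMP195 tumour 2 it was -0.28, at an unadjusted p of 0.0412 in limma (2.9% of all genes were under 0.05) and an adjusted p of 1.00, and without TMP195 tumour 3 it was -0.029.

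Lyz2, the lysozyme of macrophages and granulocytes, had the smallest unadjusted p of the 10, 0.134 in limma. It measured 9.91, 9.69 and 9.97 in TMP195 tumours, against 10.25, 9.89 and 10.10 in DMSO tumours. All TMP195 tumours were below DMSO tumours 1 and 3, but DMSO tumour 2 fell among them. The means were 9.86 ± 0.15 in TMP195 tumours and 10.08 ± 0.18 in DMSO tumours (SD, n = 3 each), a log2 difference of -0.22 with an interval of -0.52 to 0.087. The difference was below 0 whichever tumour was left out, from -0.32 to -0.14, and without DMSO tumour 2 its unadjusted p was 0.0464 in limma (2.52% of all genes were under 0.05) and its adjusted p 1.00. Lyz1 is a closely similar neighbouring gene, so probes may read both, and its own probe set differed by -0.17 and was also lowest in TMP195 tumour 2.

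Aif1 encodes IBA1, a calcium-binding protein that bundles actin in macrophages and microglia. It measured 5.06, 5.28 and 4.99 in TMP195 tumours and 5.17, 4.97 and 5.09 in DMSO tumours. TMP195 tumour 2 was highest by 0.11, and the others were mixed. Aif1 averaged 5.11 ± 0.15 in TMP195 tumours and 5.08 ± 0.10 in DMSO tumours (SD, n = 3 each), a log2 difference of 0.030 with an interval of -0.24 to 0.30. It was -0.056 without TMP195 tumour 2 and -0.024 without DMSO tumour 2. This probe set was the dimmest of the 10, at percentile 42.2.

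**Figure D2:**
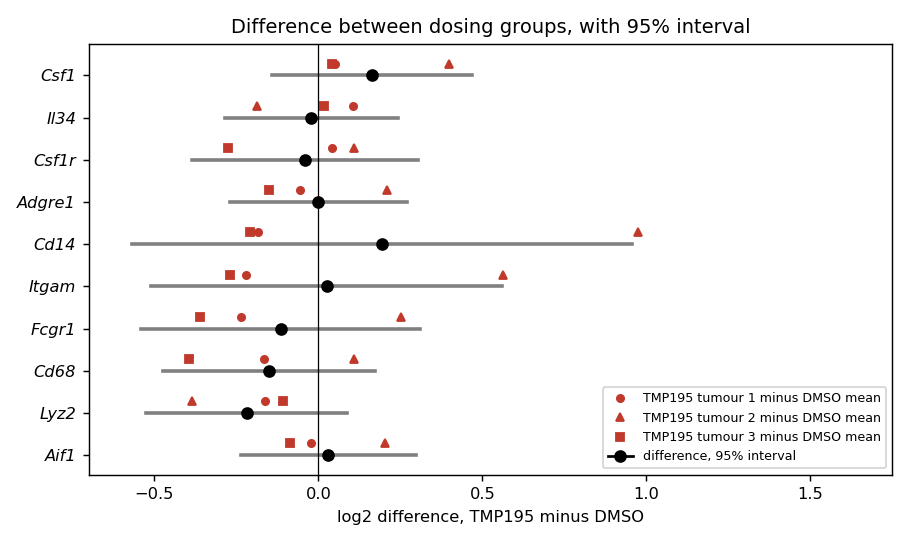
Log2 difference (horizontal axis), TMP195 minus DMSO, for each gene: black points with grey 95% moderated intervals, and above each the 3 TMP195 tumours minus the DMSO mean in red. All 10 intervals cross 0, and the red triangle of TMP195 tumour 2 reaches 0.98 for Cd14.

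The arrays bound the size of any difference more tightly for some genes than for others. The half-width of the 95% interval ran from 0.26 for Il34 to 0.76 for Cd14, with a median of 0.31, against 0.30 over all genes. For Adgre1 the interval spans 0.830-fold to 1.20-fold, and for Cd14 it spans 0.675-fold to 1.94-fold.

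The direction of several members turned on 1 animal. TMP195 tumour 2 and DMSO tumour 2 stand apart on the arrays as a whole: TMP195 tumour 2 was highest in 25.4% and lowest in 22.4% of all genes, and DMSO tumour 2 was highest in 24.2% and lowest in 18.7%. With TMP195 tumour 2 left out, 8 of the 10 differences were below 0 (median -0.13) and both remaining TMP195 tumours lay below all 3 DMSO tumours in Adgre1, Cd68, Itgam and Fcgr1. That pattern held in 8.07% of all genes. With both tumours numbered 2 left out, 9 of 10 were below 0 (median -0.22), with Fcgr1 at -0.40, Cd14 at -0.31 and Itgam at -0.30, and 7 members had both TMP195 tumours below both DMSO tumours, as did 14.5% of all genes. In that comparison of 2 against 2 tumours 3 members, Cd14, Itgam and Fcgr1, had an unadjusted p under 0.05 in limma (3.72% of all genes) and none passed the adjusted threshold. With TMP195 tumour 3 left out the balance went the other way, with 7 of 10 above 0 (median 0.075).

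**Figure D3:**
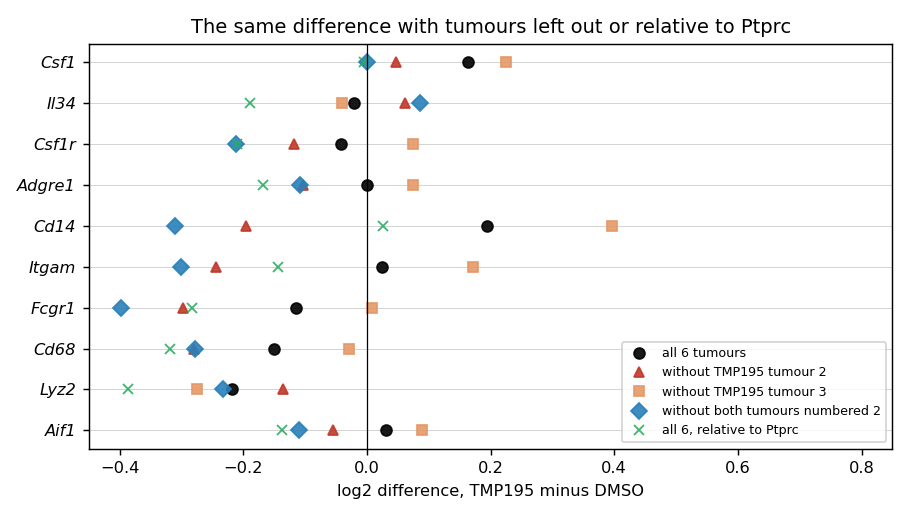
Log2 difference, TMP195 minus DMSO (horizontal axis), for each gene with all 6 tumours, with TMP195 tumour 2, TMP195 tumour 3 or both tumours numbered 2 left out, and relative to Ptprc on the same array, a scaling that puts the median of all genes at -0.17. Without TMP195 tumour 2 Cd14 stands at -0.20 and Itgam at -0.24, left of 0, and without TMP195 tumour 3 most points lie right of 0.

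The pan-leukocyte gene Ptprc, which encodes CD45, measured 6.64, 7.02 and 6.67 in TMP195 tumours, against 6.77, 6.34 and 6.70 in DMSO tumours. It too was highest in TMP195 tumour 2. Taken relative to Ptprc on the same array, 9 of 10 members were below 0, with a median of -0.18, and Cd14 was 0.026. The same scaling put the median of all genes at -0.17, with 17688 of 19936 genes below 0, so relative to that shift the members' median lay close to 0. The largest member difference was Lyz2 at -0.39.

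Transcripts that work with the members were compared from a list of 14 partner receptors, cofactors and relatives. None passed the adjusted threshold, 4 were higher and 10 lower in TMP195 tumours, and the median difference was -0.024. The integrin chain gene Itgb2 measured 6.70, 6.91 and 6.70 in TMP195 tumours, against 6.98, 6.82 and 6.97 in DMSO tumours, a difference of -0.15 ± 0.10 (SE). Fcer1g, the signalling chain of CD64, was 7.37, 7.70 and 7.17 in TMP195 tumours and 7.48, 7.39 and 7.43 in DMSO tumours. Itgax, the CD11c integrin chain, was 6.27, 7.12 and 6.05 in TMP195 tumours and 6.39, 6.36 and 6.47 in DMSO tumours. Both Fcer1g and Itgax had TMP195 tumour 2 at the top and TMP195 tumour 3 at the bottom, as did Itgam. Ly96, which encodes MD-2, ordered the tumours differently, with 8.04 in DMSO tumour 1 as its highest value and 6.26 in TMP195 tumour 3 as its lowest.

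Downstream of the receptor, 15 of 19 listed signalling genes were measured, with 0 past the adjusted threshold, 7 higher, 8 lower and a median of -0.013. The adaptor genes Dok2 and Grb2 differed by -0.24 ± 0.12 and 0.32 ± 0.27 and the lipid kinase gene Pik3cg by 0.16 ± 0.12 (SE). Grb2 was at 8.42 in TMP195 tumour 2 and from 7.32 to 7.61 in the other 5. Of the 13 measured transcription factors of the macrophage lineage, 0 passed, 6 were higher and 7 lower. Spi1, the gene of PU.1, measured 6.44, 6.59 and 6.51 in TMP195 tumours, against 6.66, 6.53 and 6.73 in DMSO tumours, a difference of -0.13 ± 0.10 (SE). Unlike Itgam and Cd14, Spi1 was not highest in TMP195 tumour 2. Irf5 differed by -0.20 ± 0.12 (SE). Tfec, a myeloid relative of MITF, was the only one of these whose groups did not overlap, at 2.89, 2.68 and 2.80 in TMP195 tumours and 3.16, 3.05 and 3.27 in DMSO tumours (difference -0.37 ± 0.10 SE, limma adjusted p = 1.00). That is 1 of 13, against 6.68% of all genes, and its probe set was dim, at percentile 16.5.

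Other colony-stimulating factors and their receptors gave 0 of 11 past the threshold, with 6 higher, 5 lower and a median of 0.075. Flt3l, the ligand that expands dendritic cells, measured 5.66, 5.75 and 5.62 in TMP195 tumours, against 5.41, 5.40 and 5.57 in DMSO tumours. Its groups did not overlap (difference 0.22 ± 0.09 SE, limma adjusted p = 1.00). That is 1 of these 11 genes, against 6.68% of all genes. Csf3, the granulocyte factor, differed by -0.34 ± 0.18 and Kitl, the ligand of KIT, by 0.37 ± 0.25 (SE). Interleukin-34 is also reported to bind the phosphatase encoded by Ptprz1 and the proteoglycan encoded by Sdc1. Ptprz1 differed by -0.43 ± 0.42 and Sdc1 by 0.14 ± 0.24 (SE), and Sdc1 was at 8.36 in TMP195 tumour 2 and from 7.45 to 7.74 elsewhere.

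Genes whose standardized profile over the 6 tumours lay nearest to a member's were sought among 13946 genes above the 30th percentile of intensity. With 6 tumours and that many genes some close profiles occur whatever the biology, so the distances are only a description. For Csf1r the nearest were Adap2, Rb1cc1, Nrros, Akr1c18 and Adgrf5, at root mean square distances from 0.188 to 0.239. Nrros, which encodes a myeloid protein that anchors latent transforming growth factor beta, measured 4.53, 4.57 and 4.08 in TMP195 tumours and 4.36, 4.26 and 4.72 in DMSO tumours. For Csf1 they were Hlx, Cd3g, Samd4, Cblb and Rsbn1, at 0.0737 to 0.114. Cd3g, a chain of the T cell receptor complex, measured 4.83, 5.66 and 4.84 in TMP195 tumours and 4.64, 4.42 and 4.96 in DMSO tumours. For Il34 they were Gadd45g, Slc16a13, Abcc10, Pgp and Stx8, at 0.0939 to 0.119.

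The 9 mammary epithelial genes were all measured, at percentile 62.5 of intensity or above. Krt8, Krt18, Epcam and Cdh1 had bright probe sets, above percentile 97, as the tissue label implies. Relative to the DMSO mean, the mean log2 intensity of the 9 was 0.0024, -0.36 and -0.12 in TMP195 tumours. It was -0.15, 0.034 and 0.12 in DMSO tumours, so TMP195 tumour 2 was lowest. No probe set reads 0, the lowest value in the table being 0.482, and detection over background was not tested, so a dim probe set shows neither the presence nor the absence of a transcript. None of the marker genes of other cells passed the adjusted threshold. Summed intensity of the 5 leukocyte genes was 834, 1123 and 919 in TMP195 tumours, against 1078, 820 and 949 in DMSO tumours. For 7 T cell genes the sums were 159, 232 and 177 in TMP195 tumours, against 193, 158 and 183 in DMSO tumours. The leukocyte and T cell sums were therefore highest in the tumour in which Cd14, Itgam and Adgre1 were highest. Taken singly, only 2 of the 5 leukocyte genes and 4 of the 7 T cell genes were highest in that tumour. In contrast, 5 monocyte genes summed to 1765, 1009 and 1535 in TMP195 tumours and 1200, 1047 and 1684 in DMSO tumours, lowest in TMP195 tumour 2.

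Neutrophils also carry Itgam, Cd14 and Lyz2. The 10 neutrophil genes summed to 1918, 1321 and 2354 in TMP195 tumours, against 2814, 1959 and 2234 in DMSO tumours, and most of that sum came from Ltf, which mammary epithelium also makes. The mean log2 intensity of these genes, which gives each gene equal weight, stood at -0.31, -0.071 and -0.059 in TMP195 tumours and at 0.12, 0.029 and -0.15 in DMSO tumours relative to the DMSO mean. The sum was lowest in TMP195 tumour 2 and the mean log2 in TMP195 tumour 1, so the measures order the tumours differently. The neutrophil markers Ly6g, Cxcr2 and Mmp8 had dim probe sets, under percentile 15. S100a8 measured 4.98, 5.31 and 5.08 in TMP195 tumours and 5.51, 6.80 and 5.46 in DMSO tumours, so the groups did not overlap (difference -0.80 ± 0.35 SE, limma adjusted p = 1.00), as in 1 of the 10 neutrophil genes and 6.68% of all genes. The 9 dendritic cell genes summed to between 212 and 237 in TMP195 tumours and between 221 and 251 in DMSO tumours. Of these 9 genes 5 were higher and 4 lower in TMP195 tumours, with a median difference of 0.062. Among them only the lectin gene Cd209a had groups that did not overlap. It measured 4.71, 4.50 and 4.71 in TMP195 tumours, against 5.05, 5.31 and 5.13 in DMSO tumours (difference -0.52 ± 0.11 SE, limma unadjusted p = 0.0024, adjusted p = 1.00). That is 1 of 9 genes on either count. Over all genes 6.68% did not overlap and 2.52% had an unadjusted p under 0.05. The B cell sums over 5 genes ran from 60.5 to 65.0 in TMP195 tumours and from 57.1 to 69.9 in DMSO tumours. Groups also did not overlap in the B cell receptor gene Cd79b, which differed by -0.14 ± 0.09, and in the T cell gene Cd8b1, which differed by 0.18 ± 0.10 (SE).

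Adipocyte and skeletal muscle transcripts varied more than any of these. Summed intensity of 8 adipocyte genes was 3810, 231 and 822 in TMP195 tumours, against 2099, 1249 and 5888 in DMSO tumours, and 6 fibroblast genes summed to 7784, 4894 and 6410 in TMP195 tumours, against 6835, 5239 and 8371 in DMSO tumours. TMP195 tumour 2 was lowest in both. The 8 skeletal muscle genes summed to 269 to 354 in TMP195 tumours and to 274, 3094 and 268 in DMSO tumours, so DMSO tumour 2 alone was high. Endothelial genes, 5 in number, summed to 762 to 839 in TMP195 tumours and to 627 to 805 in DMSO tumours. The part of these differences in make-up in the members' levels was not tested.

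**Figure D4:**
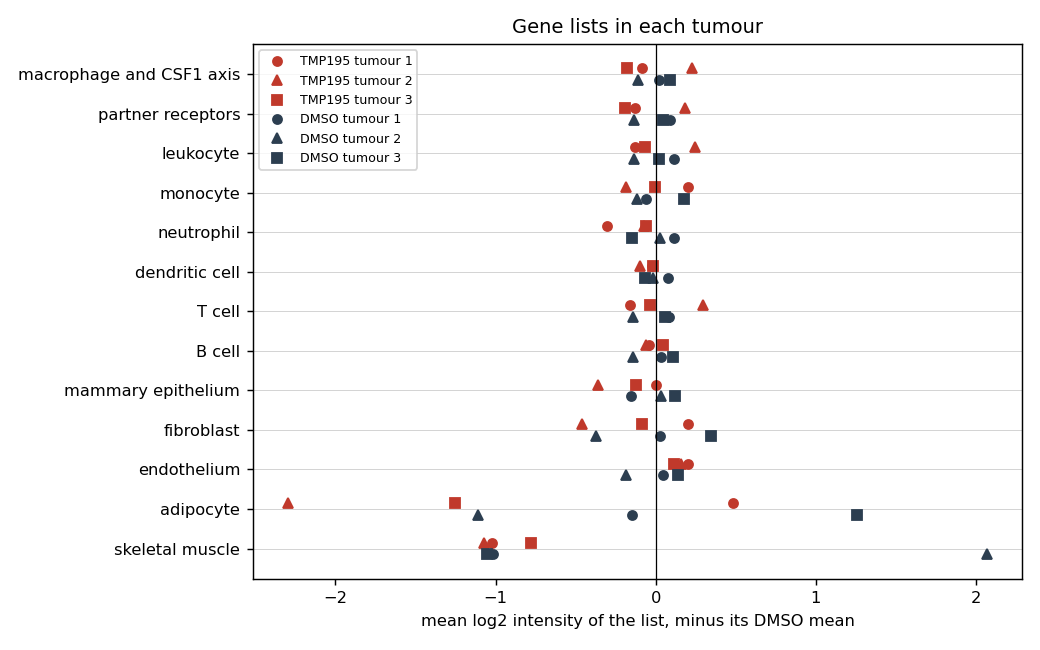
Mean log2 intensity of each gene list in each tumour, minus the list's mean over DMSO tumours (horizontal axis), with TMP195 tumours in red above DMSO tumours in dark, and marker shape for tumour number. TMP195 tumour 2 is at 0.22 for the macrophage and CSF1 axis genes and at -2.30 for adipocyte genes, and DMSO tumour 2 is at 2.07 for skeletal muscle genes.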

How the data were processed

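Total RNA from each tumour was labelled with biotin and hybridised to an Affymetrix array, per the labels' protocols. Affymetrix Power Tools and RMA are the tools that the submitters' processing notes name. Their versions, any filter and the genome build were not given in the sources used here, and the scale is not stated. Deposited by the authors were intensity values for 27359 probe sets, 1 column a tumour, and these were taken as linear because all exceed 0 and the column medians lie between 44.8 and 46.4, whereas RMA itself gives log2 values. Whether they were centred is not stated, and their range shows no centring. No 2 columns were identical, and Spearman correlations over probe sets lay between 0.985 and 0.996.

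Probe sets with exactly 1 gene symbol (21784; 1620 had several, 3955 none) were named through the platform annotation, checked through Entrez IDs against RefSeq (GRCm38.p6, 0 symbols changed), and the brightest stood for each of 19937 genes. Each member had a single such probe set. The log2 of each intensity entered limma 3.58.1 (R 4.3.3, lmFit and eBayes), two-sided, TMP195 minus DMSO, no covariate, adjusted over all genes, after a test on simulated data. The members, lists and alternatives were chosen with earlier results of these data known. The other genes named are the 3 of smallest unadjusted p in a list, the members' partners, and the 5 of nearest profile. Ltf, Ly6g, Mmp8, Cxcr2, Nrros, Cd3g and the epithelial genes were singled out as examples after their values were seen. Precision is limited by the number of arrays. Python 3.11.15 with pandas 2.3.3, numpy 2.4.6, scipy 1.17.1 and matplotlib 3.10.9 did the rest.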

Additional observations from a re-analysis of the deposited data

How the results depend on the processing

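No member passed an adjusted p of 0.05 in limma under any alternative run, nor did any gene in the counts over all genes. Adgre1 turned to 0.0058 with median centring and 0.0036 with cyclic loess. Array weights turned Cd14 to -0.13, Itgam to -0.19 and Aif1 to -0.036, leaving 1 member higher. Relative to Ptprc, which moved the median of all genes to -0.17, Csf1 turned to -0.0043, Itgam to -0.14 and Aif1 to -0.14. Leaving out TMP195 tumour 2 and DMSO tumour 2 turned Csf1 to -2.25e-04, Il34 to 0.085, Cd14 to -0.31, Itgam to -0.30 and Aif1 to -0.11, again with 1 member higher. There 3 members had an unadjusted p under 0.05, and the groups did not overlap in 7 members and 5747 genes, a count that fewer tumours raise by construction. Genes at an unadjusted p under 0.05 numbered 502 as reported, 243 without dim genes (832 not overlapping, of fewer genes tested) and 938 with array weights. Where no cause is named, the cause was not tested.

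Leaving out each tumour in turn gave ranges of -0.10 to 0.075 for Adgre1, -0.14 to 0.075 for Csf1r, 0.046 to 0.225 for Csf1, -0.085 to 0.061 for Il34, -0.28 to -0.029 for Cd68, -0.20 to 0.40 for Cd14, -0.24 to 0.17 for Itgam, -0.30 to 0.0082 for Fcgr1, -0.32 to -0.14 for Lyz2 and -0.056 to 0.089 for Aif1. The ratio of Csf1r to Il34 ran from -0.18 to 0.12 and that of Csf1r to Csf1 from -0.30 to -0.15. Across these, 2 to 7 members were higher and 3 to 8 lower, 0 to 1 had an unadjusted p under 0.05 (503 to 669 of all 19937 genes), and groups did not overlap in 0 to 4 members and in 2786 to 3685 genes. Tumours that share a number did not deviate together (correlations of -0.21, -0.063 and -0.097 over genes). Deviations from a mean of 3 tumours are not independent of each other, so these correlations cannot exclude a pairing. With the replicate block, 397 genes had an unadjusted p under 0.05 and Lyz2 kept its difference of -0.22 (limma unadjusted p = 0.0935). The number of arrays sets the limits given by the intervals, and dim probe sets such as those of Tfec and Ly6g may understate differences.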
